A study of Mus musculus with 24 samples.

Results

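Tsc2 lies in a gene-dense stretch of mouse chromosome 17, and 10 of the genes within about 1.5 Mb of it were followed through messenger RNA and ribosome footprints: Ccnf, Abca3, Traf7 and Pkd1 on one side, and Nthl1, Slc9a3r2, Hagh, Nubp2, Spsb3 and Decr2 on the other. They were chosen by their place near Tsc2 and by the genotype differences in RNA and footprints of these same libraries, which were already known, so every genotype value of a listed gene is a description and no test is drawn from it. All 10 were present in both count tables and all 10 passed the filter on low counts in both, among 150 genes of the window found in either table, of which 95 were tested in RNA and 85 in footprints (14516 and 12877 genes tested over the whole genome). The comparison asks whether targeting Tsc2 was accompanied by other levels of the genes that touch it (Pkd1, Nthl1) or of genes farther along the same chromosome (Abca3, Spsb3, Decr2).

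The material was hippocampal slices of male Tsc2+/- mice and wild-type (WT) littermates aged 28 to 42 days, with area CA3 cut away, treated for 5 min with vehicle or with 100 µM DHPG, an agonist of group 1 metabotropic glutamate receptors, and then held in 100 µg/ml cycloheximide, which arrests ribosomes. The Tsc2+/- mice carried 1 germline-deleted allele of Tsc2, made by crossing a floxed allele to CMV-Cre, and were bred on C57BL/6J. The origin of the DNA around the targeted allele is not given in the sources used here, so the deletion and the DNA inherited with it cannot be told apart by genotype alone. Each of the 4 groups had 3 libraries per assay, each library from slices of several pooled mice, and ribosome-protected fragments (RPF) and poly(A) RNA came from the same lysates, giving 24 libraries in all.

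Tsc2 encodes tuberin, which with hamartin (Tsc1) restrains Rheb and so the kinase complex mTORC1, a main switch of protein synthesis. Its neighbours have other roles. Pkd1 encodes polycystin-1, a very large membrane protein of cilia and cell contacts, and in people deletions that span both genes cause tuberous sclerosis with early polycystic kidney disease. Nthl1 is a DNA glycosylase that removes oxidised pyrimidines in base excision repair, and both it and Tsc2 are transcribed outwards from almost the same point. Where genes share a start region or overlap at their ends, a change to one gene's DNA could touch the other's transcript. The listed genes farther away share neither with Tsc2 but lie on the same chromosome.

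On GRCm38.p6, Tsc2 spans chr17:24595816-24632676 on the minus strand. Pkd1 (chr17:24548689-24596514, plus strand) runs into it tail to tail, and the 2 gene models overlap by 699 bases. Nthl1 (chr17:24632680-24638838, plus strand) begins 3 bases beyond the start of Tsc2, and Slc9a3r2 (chr17:24639281-24650305, minus strand) lies beyond it, with its start 17.63 kb from Tsc2. Traf7 (chr17:24508850-24527938, minus strand) starts 67.88 kb away on the Pkd1 side.

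The stretch between the curated transcript starts of Tsc2 and Nthl1 is shown because it is the only DNA that separates the targeted gene from a listed neighbour. It covers 54 bases, chr17:24632628-24632681 of GRCm38.p6 on the plus strand (RefSeq), and its 3 capitals mark the bases that lie in no annotated transcript of either gene.
Tsc2-Nthl1 start region: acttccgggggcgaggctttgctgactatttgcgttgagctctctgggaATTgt
Of these bases 53.7% are G or C, against a median of 55.56% in RefSeq promoter stretches of the same length, and 3 CpG pairs stand in it against a median of 1. The letters CCAAT, found in 9.52% of the 32851 promoter stretches, are absent here on both strands. So is GGGCGG, found in 17.2% of stretches. No TATAAA occurs on either strand, which 3.66% of stretches hold.

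A second shared start region lies farther out. Nubp2 (chr17:24882611-24886350, minus strand) and Spsb3 (chr17:24885982-24892150, plus strand) are also transcribed outwards from one region, with gene models that overlap by 369 bases, and the 232 bases between their first exons are shown because the RNA of Spsb3 was lower in Tsc2+/- slices and that of Nubp2 was not (chr17:24886411-24886642 of GRCm38.p6, plus strand, RefSeq). Capitals mark CCAAT, which was searched for on both strands and found 3 times on the strand printed.
Nubp2-Spsb3 start region: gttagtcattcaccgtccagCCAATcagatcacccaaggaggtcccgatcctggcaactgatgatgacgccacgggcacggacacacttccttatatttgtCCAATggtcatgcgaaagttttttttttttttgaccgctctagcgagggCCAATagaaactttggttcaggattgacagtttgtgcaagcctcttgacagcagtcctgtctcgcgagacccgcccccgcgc
CCAAT stands in 32.3% of promoter stretches of this length, and 3 or more copies in 2.56%. GGGCGG has 1 match (in 32.2% of stretches) and TATAAA is absent (present in 11.5%). The stretch holds 13 CpG pairs against a median of 5. A match of letters is a description of the DNA and not a binding site.

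The remaining listed genes are Ccnf (chr17:24223230-24251409, minus strand), Abca3 (chr17:24351921-24410204, plus strand), Hagh (chr17:24839781-24864450, plus strand) and Decr2 (chr17:26081208-26090322, minus strand). Decr2 is the outermost, 1.458 Mb from Tsc2. Several gene models overlap unlisted ones, Hagh sharing 1407 bases with Fahd1 and 8 with Meiob, Abca3 sharing 138 with Abca17 and 724 with D330041H03Rik, and Traf7 sharing 60 with Caskin1. The largest such overlap is that of Pkd1, which shares 13056 bases with the non-coding LOC115488769 on the same strand. The RNA kit kept strand, but whether the counting used it is not stated. Reads in those overlaps could therefore have been assigned to either gene. The same holds for the 699 bases common to Pkd1 and Tsc2 and the 369 common to Nubp2 and Spsb3.

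Values are CPM, the counts of a gene over the TMM-scaled total of its library, given for replicates 1, 2 and 3 in that order. Tsc2 itself, the check of the labels, had 193, 195 and 186 CPM of RNA in WT vehicle and 199, 202 and 214 in WT DHPG. In Tsc2+/- slices it had 136, 128 and 137 with vehicle and 129, 133 and 135 with DHPG. Every Tsc2+/- library lay under every WT library, and the averaged change was −32.9% (log2 fold change −0.58, SE 0.0385, 95% interval −0.65 to −0.50). Footprints on Tsc2 were 135, 125 and 138 CPM in WT vehicle and 128, 123 and 146 in WT DHPG. They were 81.2, 79.3 and 77.8 in Tsc2+/- vehicle and 76.5, 83.0 and 84.5 in Tsc2+/- DHPG, an averaged change of −39.3% (log2 fold change −0.72, SE 0.0525). All 24 libraries thus matched their genotype labels at this gene.

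The gene that overlaps the end of Tsc2 differed little. Pkd1 RNA was 78.6, 86.4 and 71.1 CPM in WT vehicle, 86.5, 82.4 and 97.3 in WT DHPG, 70.8, 75.8 and 76.1 in Tsc2+/- vehicle, and 77.4, 73.5 and 83.2 in Tsc2+/- DHPG. The genotypes overlapped over much of their range, with a mean of 83.7 ± 8.79 in WT and 76.1 ± 4.17 in Tsc2+/- (SD, n = 6 each). The averaged log2 fold change was −0.14 (SE 0.0517, 95% interval −0.24 to −0.03), a change of −9.06%, and 5 of 6 same-numbered Tsc2+/- libraries were the lower. Pkd1 footprints were 19.9, 18.8 and 17.9 CPM in WT vehicle, 16.6, 22.0 and 22.3 in WT DHPG, 19.7, 15.4 and 14.1 in Tsc2+/- vehicle, and 16.4, 15.3 and 17.5 in Tsc2+/- DHPG. The footprint difference was −0.22 (SE 0.107), lower in 6 of 6 same-numbered contrasts but with overlapping groups. Both values were far smaller than the −0.58 and −0.72 of Tsc2.

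The gene that shares its start with Tsc2 was too sparse to tell in RNA. Nthl1 RNA had 15 to 38 counts per library, or 1.14, 1.57 and 1.28 CPM in WT vehicle, 1.65, 0.886 and 0.710 in WT DHPG, 1.19, 0.671 and 0.993 in Tsc2+/- vehicle, and 0.661, 1.30 and 0.975 in Tsc2+/- DHPG. Its log2 fold change of −0.32 had an SE of 0.285 and an interval from −0.89 to 0.26, and 3 of 6 same-numbered contrasts went each way. That interval includes the whole change of Tsc2 as well as none. Footprints (6 to 27 counts) were 1.85, 2.76 and 1.14 CPM in WT vehicle, 1.75, 0.977 and 2.53 in WT DHPG, 2.60, 1.86 and 2.36 in Tsc2+/- vehicle, and 1.97, 1.12 and 2.12 in Tsc2+/- DHPG, a difference of 0.11 with an interval of −0.48 to 0.70. The footprint interval includes no change and does not reach the −0.72 of Tsc2 footprints. No genotype difference in Nthl1 was detected at this depth in either assay, and smaller ones cannot be told from none.

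The next neighbours on each side lay close to 0. Slc9a3r2, which encodes the PDZ scaffold NHERF2, had 16.8 to 19.9 CPM of RNA in the 6 WT and 16.1 to 21.0 in the 6 Tsc2+/- libraries, and its log2 fold change was −0.01 (95% interval −0.16 to 0.14). Traf7, an E3 ubiquitin ligase of the TRAF family, had 21.6 to 24.9 CPM in WT and 22.3 to 27.3 in Tsc2+/- slices, with a log2 fold change of 0.02 (−0.12 to 0.16). In footprints Slc9a3r2 was at −0.18 (−0.44 to 0.08) and Traf7 at −0.01 (−0.22 to 0.21), with overlapping groups in both.

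Of the farther genes, 3 stood apart between genotypes in RNA, 1 upwards and 2 downwards. Abca3, a lipid transporter of lamellar bodies known best from lung surfactant, starts 243.9 kb from Tsc2 and was higher in Tsc2+/- slices. It had 122, 121 and 117 CPM in WT vehicle and 127, 120.1 and 137 in WT DHPG, against 145, 144 and 147 in Tsc2+/- vehicle and 146, 140.4 and 147 in Tsc2+/- DHPG. The lowest Tsc2+/- library lay above the highest WT library, and the averaged log2 fold change was 0.23 (SE 0.0399, 95% interval 0.14 to 0.31), 16.9% higher. In footprints the same gene had 158, 136 and 140.0 CPM in WT vehicle, 148, 139 and 137 in WT DHPG, 165, 143 and 139.9 in Tsc2+/- vehicle, and 165, 141 and 166 in Tsc2+/- DHPG. There the genotypes overlapped, and the log2 fold change was 0.10 (0.01 to 0.20).

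Spsb3, a SOCS-box protein that recruits a ubiquitin ligase to its substrates, starts 253.3 kb away on the other side and was lower in Tsc2+/- RNA. It had 28.8, 29.2 and 32.4 CPM in WT vehicle and 25.2, 33.2 and 31.2 in WT DHPG, against 23.8, 23.4 and 22.4 in Tsc2+/- vehicle and 23.6, 23.0 and 24.6 in Tsc2+/- DHPG. The groups did not overlap, although the WT DHPG library of replicate 1 came within 1 CPM of the highest Tsc2+/- library, and the log2 fold change was −0.36 (SE 0.0666, −0.49 to −0.22), a change of −21.9%. Spsb3 footprints were 32.5, 30.6 and 35.4 CPM in WT vehicle, 33.3, 30.5 and 36.2 in WT DHPG, 28.05, 38.2 and 25.0 in Tsc2+/- vehicle, and 32.8, 26.5 and 26.9 in Tsc2+/- DHPG. The highest footprint value of all 12 libraries belonged to a Tsc2+/- vehicle library, the groups overlapped, and the log2 fold change was −0.15 (−0.34 to 0.04).

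Its divergent partner Nubp2, an ATPase that builds cytosolic iron-sulfur clusters, had 17.7 to 20.8 CPM of RNA in WT and 18.8 to 22.5 in Tsc2+/- libraries, a log2 fold change of 0.12 (−0.02 to 0.26). The vehicle groups overlapped, but with DHPG every Tsc2+/- library (19.5 to 22.5 CPM) lay above every WT library (17.7 to 19.1). The log2 fold change with DHPG was 0.17 (−0.03 to 0.37) and was not called. The lower RNA of Spsb3 was thus not accompanied by lower RNA of the gene across the shared start region. Nubp2 footprints (18.3 to 26.1 CPM in WT, 21.2 to 28.6 in Tsc2+/-) overlapped as well, at 0.07 (−0.12 to 0.26).

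Decr2, a peroxisomal 2,4-dienoyl-CoA reductase that helps degrade polyunsaturated fatty acids, was the listed gene farthest from Tsc2 and the only one lower in both assays without overlap. Its RNA was 32.7, 35.0 and 37.9 CPM in WT vehicle and 35.9, 32.1 and 33.3 in WT DHPG, against 27.5, 26.9 and 28.7 in Tsc2+/- vehicle and 31.4, 25.4 and 26.9 in Tsc2+/- DHPG. The log2 fold change was −0.32 (SE 0.0624, −0.44 to −0.19), a change of −19.6%. Footprints were 24.8, 30.4 and 25.1 CPM in WT vehicle and 27.1, 27.4 and 26.1 in WT DHPG, against 21.2, 23.1 and 19.2 in Tsc2+/- vehicle and 18.7, 20.2 and 21.2 in Tsc2+/- DHPG. All 6 Tsc2+/- libraries lay under all 6 WT libraries, and the log2 fold change was −0.38 (SE 0.0847, −0.55 to −0.20), a change of −23.0%, close to the RNA value.

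Ccnf and Hagh completed the list without separating the genotypes over all libraries. Ccnf, a cyclin that serves as an F-box subunit of a ubiquitin ligase, had low RNA of 2.65 to 5.40 CPM in WT and 4.43 to 5.41 in Tsc2+/- libraries. Its log2 fold change was 0.34 (SE 0.141, 0.06 to 0.63), with the vehicle groups apart and the DHPG groups overlapping, and 0.21 (−0.19 to 0.60) in footprints. Hagh, glyoxalase II, which completes the detoxification of methylglyoxal, had 50.6 to 66.4 CPM of RNA in WT and 46.8 to 57.9 in Tsc2+/- slices. Its log2 fold change was −0.08 (−0.20 to 0.04) in RNA and −0.11 (−0.21 to −0.01) in footprints, where the groups overlapped at 113 to 138 CPM in WT and 110.5 to 126 in Tsc2+/-.

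**Figure D1:**
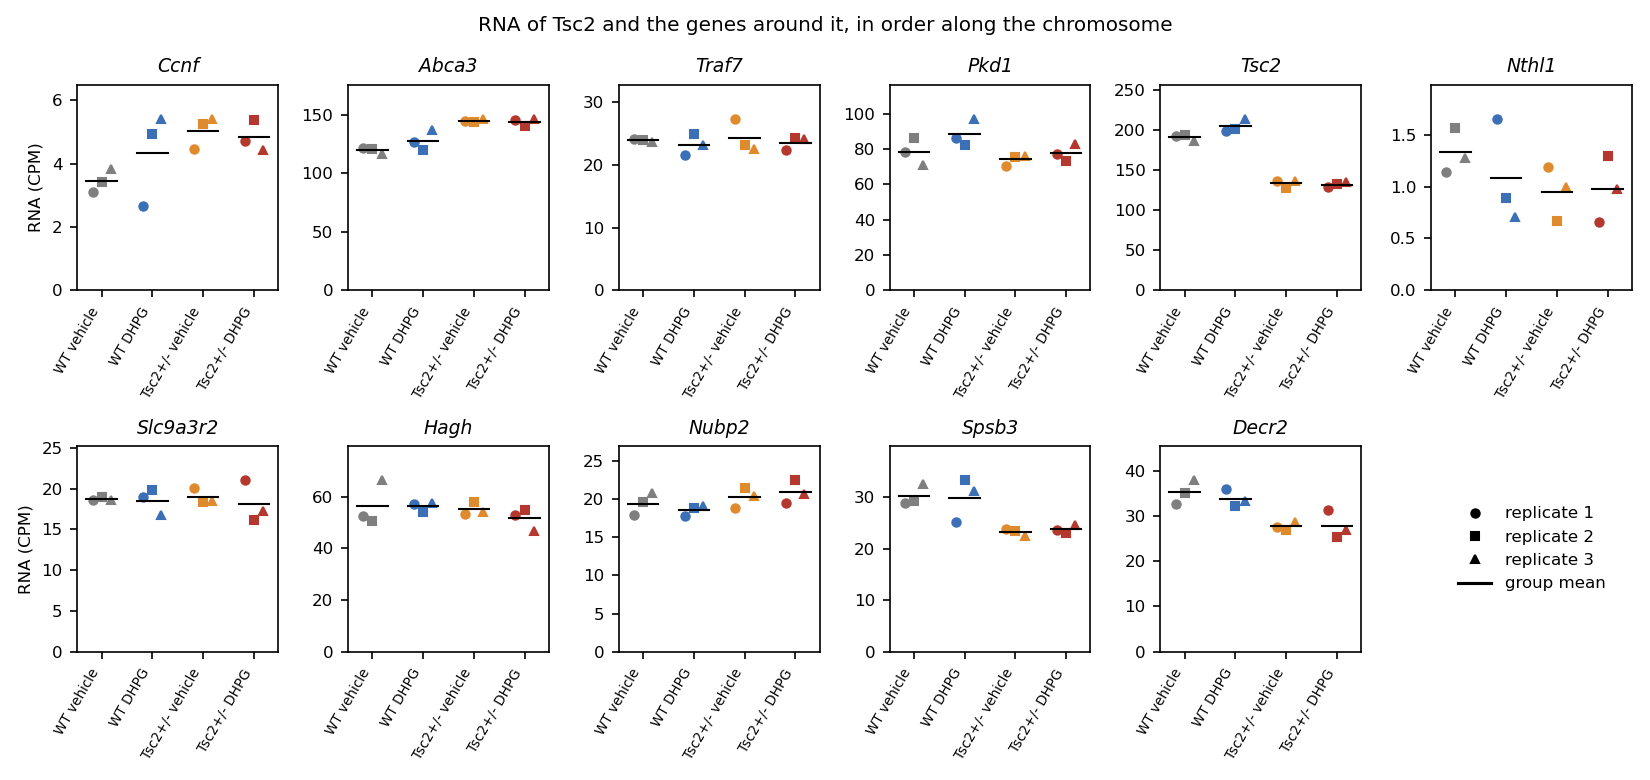
RNA level in CPM (vertical axes) of Tsc2 and the 10 listed genes in each of the 12 RNA libraries, with the 4 groups side by side, 1 point per library (its shape gives the replicate number), and a line for the group mean (n = 3). Tsc2, Spsb3 and Decr2 lie lower and Abca3 higher in every Tsc2+/- library, and the other 7 genes overlap.

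**Figure D2:**
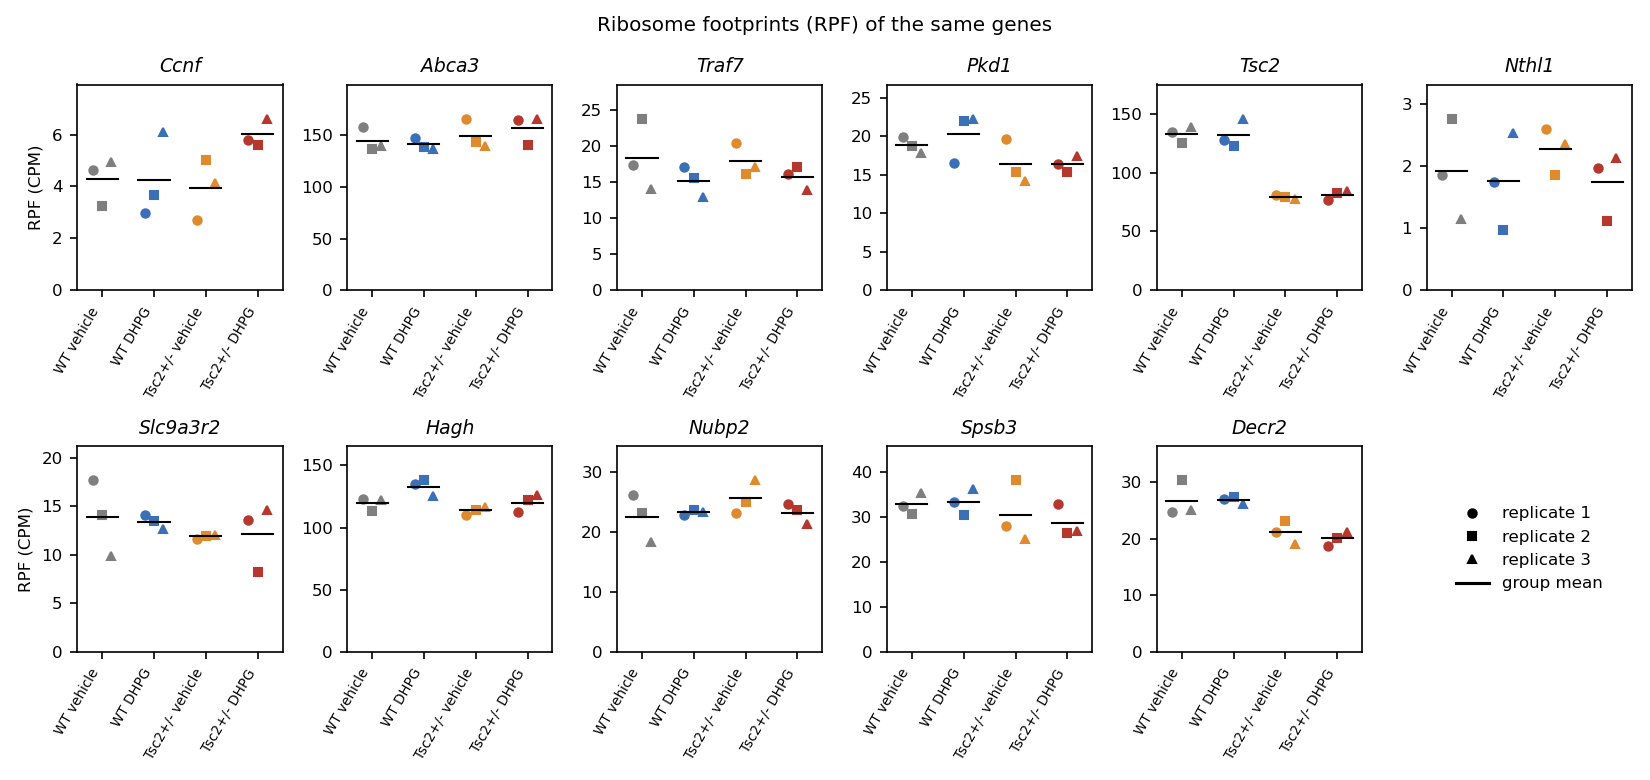
The same plot for ribosome footprints in CPM. Only Tsc2 and Decr2 keep the genotypes apart in all 12 libraries.

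Over the list, 3 of 10 genes did not overlap between the genotypes in RNA (Abca3, Spsb3, Decr2) and 1 in footprints (Decr2), where 0.234% and 0.326% of all genes tested did so. In the fit across all genes (edgeR quasi-likelihood, Benjamini-Hochberg adjusted p under 0.1), 3 of 10 were called for genotype averaged over treatments in RNA (background 0.248%), 1 with vehicle (Abca3, background 0.0964%) and 0 with DHPG (background 0.0482%). In footprints 0 of 10 were called, where the background was 0.0544% averaged, 0.0233% with vehicle and 0.0155% with DHPG. At an unadjusted p under 0.05, 5 of 10 were counted in RNA and 4 of 10 in footprints for the averaged contrast, against 6.28% and 6.83% of all genes. Nothing is read from these counts, since these contrasts chose the genes. The RNA count of 3 was 0 without replicate 2 (the number left out of all groups) and 1, Abca3, without replicate 3, and the call with vehicle was lost without any 1 of 5 of the 6 vehicle libraries (WT vehicle replicates 1 and 3 and all 3 of Tsc2+/- vehicle), and without the replicate number as a block. The footprint count became 1, Decr2, without replicate 3 or without WT vehicle replicate 3. Of the 10, 4 were higher and 6 lower in each assay, with a median log2 fold change of −0.05 in RNA and −0.06 in footprints, beside −0.00088 and −0.0026 over all genes tested.

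**Figure D3:**
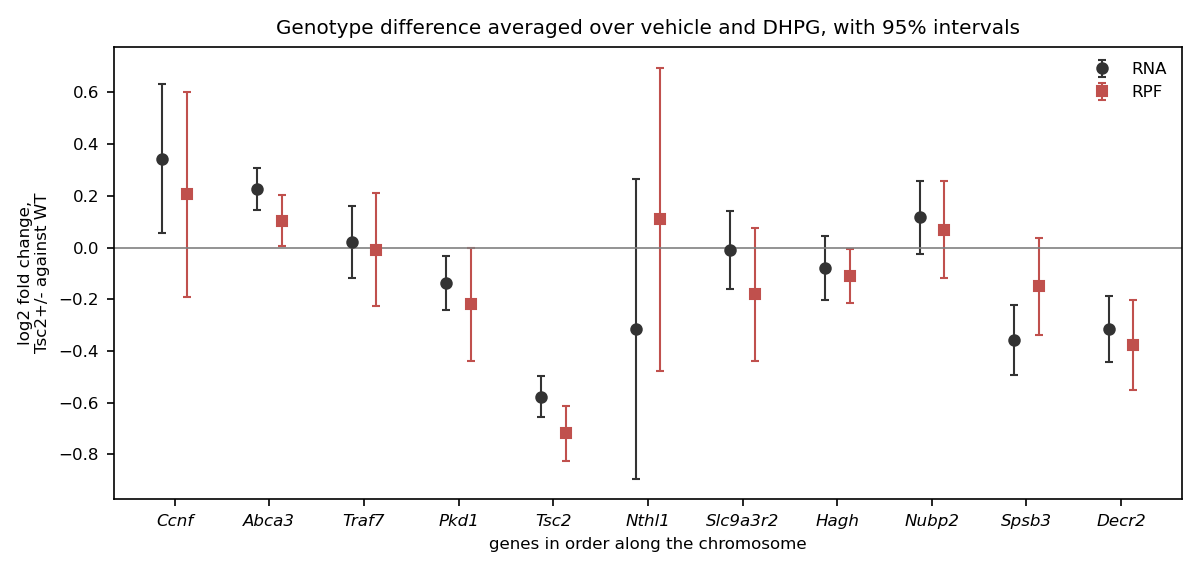
Log2 fold change of Tsc2+/- against WT, averaged over treatments, for Tsc2 and each listed gene in RNA and in footprints, with 95% intervals from the fit on 12 libraries per assay. Tsc2 is lowest in both assays, and Abca3 lies on the positive side while Spsb3 and Decr2 lie on the negative side in RNA.

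Translational efficiency (TE), here the footprint change minus the RNA change on the log2 scale in 1 fit over all 24 libraries, was called for genotype in 0 of 10 genes and in 0 of 12785 genes in all (0% averaged and 0% with vehicle, where 508 and 651 genes had an unadjusted p under 0.05). The values, again a description, ran from −0.17 for Slc9a3r2 to 0.43 for the sparse Nthl1. Spsb3 had 0.21 (−0.02 to 0.44) and Abca3 −0.11 (−0.24 to 0.01), both against the direction of their RNA, so that footprints of these 2 genes differed less between genotypes than RNA did, within intervals that include 0. Decr2 was at −0.06, and Tsc2 at −0.14 (−0.27 to −0.01).

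Levels of different genes were compared per kilobase, RNA over the longest annotated transcript and footprints over the coding sequence left after 60 bases were removed. In WT vehicle slices Hagh was the most abundant over the longest transcript, at 37.4 ± 5.65 CPM per kb of RNA (SD, n = 3). It was followed by Tsc2 at 30.1 ± 0.730, Abca3 at 18.5 ± 0.444 and Decr2 at 16.8 ± 1.24. Spsb3 (13.4 ± 0.895) and Nubp2 (13.3 ± 0.998) did not differ beyond their spread over the longest transcript. Below the genome median of 7.23 came Slc9a3r2 (7.10 ± 0.0773), Pkd1 (5.09 ± 0.495), Ccnf (1.10 ± 0.119) and Nthl1 (0.637 ± 0.104), with Traf7 just above it (8.74 ± 0.105). The genes that border Tsc2 on either side were therefore both expressed far below it. Over the merged length of all annotated exons instead, Hagh (29.1 CPM per kb) no longer exceeded Tsc2 (29.4) in WT vehicle slices. Spsb3 (9.77) then lay below Nubp2 (12.5). The order of Hagh and Tsc2, and the likeness of Spsb3 and Nubp2, thus depended on the length used.

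The ratio of footprint to RNA density set Pkd1 apart. It was 0.289 ± 0.0241 in WT vehicle (n = 3), at the 0.894th percentile of 12753 genes whose median was 2.60, and the lowest of the list. Tsc2 had 0.820 (8.90th percentile) and Traf7 1.08 (14.2th), while Hagh had 3.72 ± 0.446 (67.8th) and Nthl1, with few reads, 3.52 ± 1.15. Pkd1 also has the longest counted coding sequence of the list (12891 bases), and the part of coding length in this ratio was not tested.

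The 4 groups also allowed tests of DHPG. The interaction is the difference between the genotype contrasts with DHPG and with vehicle, and DHPG within a genotype reuses their libraries. These are therefore not free of the genotype differences that chose the genes. Only DHPG averaged over genotypes, which weighs both genotypes alike, is separate from them. After 5 min of DHPG, edgeR called 0 of the 10 genes at an adjusted p under 0.1 in RNA, in WT slices (0% of all genes called), in Tsc2+/- slices (0%) or averaged (0.0207%). In footprints 0 of 10 were called as well, where 0.0311% of genes were called in WT, 0% in Tsc2+/- and 0.0311% averaged. DESeq2 also called 0 of the 10 in these contrasts, and when it was run after ComBat it called 1, Pkd1, in RNA in WT and averaged. At an unadjusted p under 0.05 the edgeR counts were 1, 0 and 1 of 10 in RNA and 1, 1 and 2 of 10 in footprints. Over all genes they were 881, 706 and 1104 of 14516 in RNA and 911, 498 and 896 of 12877 in footprints.

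Pkd1 was the gene nearest to a DHPG response in RNA. It had a log2 fold change of 0.17 in WT slices (SE 0.0735, 95% interval 0.02 to 0.32, edgeR adjusted p = 0.803, higher in 2 of 3 same-numbered contrasts) and 0.12 averaged over genotypes (SE 0.0517, edgeR adjusted p = 0.605, higher in 4 of 6). In footprints Hagh had 0.12 averaged (SE 0.0505, edgeR adjusted p = 0.650, higher in 6 of 6) and Traf7 −0.24 (SE 0.106, edgeR adjusted p = 0.679, lower in 5 of 6). Neither passed. The 3 genes whose RNA did not overlap between genotypes had averaged DHPG differences of 0.04 for Abca3 (−0.04 to 0.12), 0.02 for Spsb3 (−0.12 to 0.15) and −0.03 for Decr2 (−0.16 to 0.09), with edgeR adjusted p from 0.834 to 0.976. The 2 genes with the fewest RNA counts had wider intervals that include sizeable changes of either sign. Ccnf had 0.15 averaged in RNA (−0.13 to 0.44, edgeR adjusted p = 0.824) and Nthl1 −0.18 (−0.75 to 0.40, edgeR adjusted p = 0.915).

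The interaction asks whether the genotype difference itself changed with DHPG. It was called for 0 of 10 genes and for 0% of all genes in RNA and for 0% in footprints by edgeR (lowest adjusted p among the 10, 0.999 and 0.996), with 0 of 10 at an unadjusted p under 0.05 in either assay and 0 of 10 by DESeq2. The largest estimate was that of Ccnf, 0.68 in footprints (−0.11 to 1.47) against −0.42 in RNA. The widest intervals were those of Nthl1, −0.72 to 1.58 in RNA and −1.30 to 1.05 in footprints. TE changed with DHPG for 0 of 10 genes, beside 0.0391% of genes in WT and 0.0469% averaged, and its largest averaged value with an unadjusted p under 0.05 was 0.17 for Hagh (edgeR adjusted p = 0.597).

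The window around Tsc2 holds more genes than the list. Of 85 unlisted genes within 1.5 Mb tested in RNA, edgeR called 0 for genotype, and 23 (27.1%) had an unadjusted p under 0.05, 6 higher and 17 lower in Tsc2+/- slices. The 3 called genes of the window were all on the list, which was chosen with these results known. Of 75 tested in footprints, edgeR called 0 and 15 (20%) had an unadjusted p under 0.05, 1 higher and 14 lower. Their median log2 fold change was −0.04 in RNA and −0.06 in footprints. DESeq2 counted 20 of 85 and 10 of 75 at an unadjusted p under 0.05. The RNA count fell to 14 without replicate 2, and the footprint count to 7 without replicate 1, 8 without WT vehicle replicate 1 and 9 without WT DHPG replicate 3. RNA and footprints came from the same lysates, and of 75 genes tested in both, 7 were among both the 22 of the RNA list (31.8%) and the 15 of the footprint list (46.7%), 6 of them with the same sign and Srrm2 with opposite signs.

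The share at an unadjusted p under 0.05 fell with distance in RNA. It was 12 of 80 genes (15.0%) at 1.5 to 5 Mb, 30 of 252 (11.9%) at 5 to 20 Mb, 24 of 254 (9.45%) on the rest of chromosome 17 and 812 of 13765 (5.90%) on other chromosomes. In footprints it was 12.7%, 14.1%, 7.69% and 6.56%, so the order was broken between 1.5 and 20 Mb. The adjusted calls did not follow that order. In RNA edgeR called 3 of all 95 genes within 1.5 Mb (3.16%), each a listed gene. The list was chosen with these results known, so the 0 of 85 unlisted genes is not a result about the window. Farther out edgeR called 3 of 80 (3.75%) at 1.5 to 5 Mb and 11 of 252 (4.37%) at 5 to 20 Mb. It called 1 of 254 (0.394%) beyond and 17 of 13765 (0.124%) on other chromosomes. In footprints it called 0 of 75, 0 of 71, 3 of 199 (1.51%), 0 of 234 and 3 of 12260 (0.0245%). Genes of a window share a chromosome and are not independent of each other, and no test of the trend was made. Just outside the window in RNA, Zfp945 at −1.73 Mb (minus marks the Pkd1 side) had a log2 fold change of 0.11 and Arhgdig at 1.57 Mb had −0.03. Just inside it, Zfp40 at −1.40 Mb had −0.15 and Axin1 at 1.499 Mb had −0.03.

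**Figure D4:**
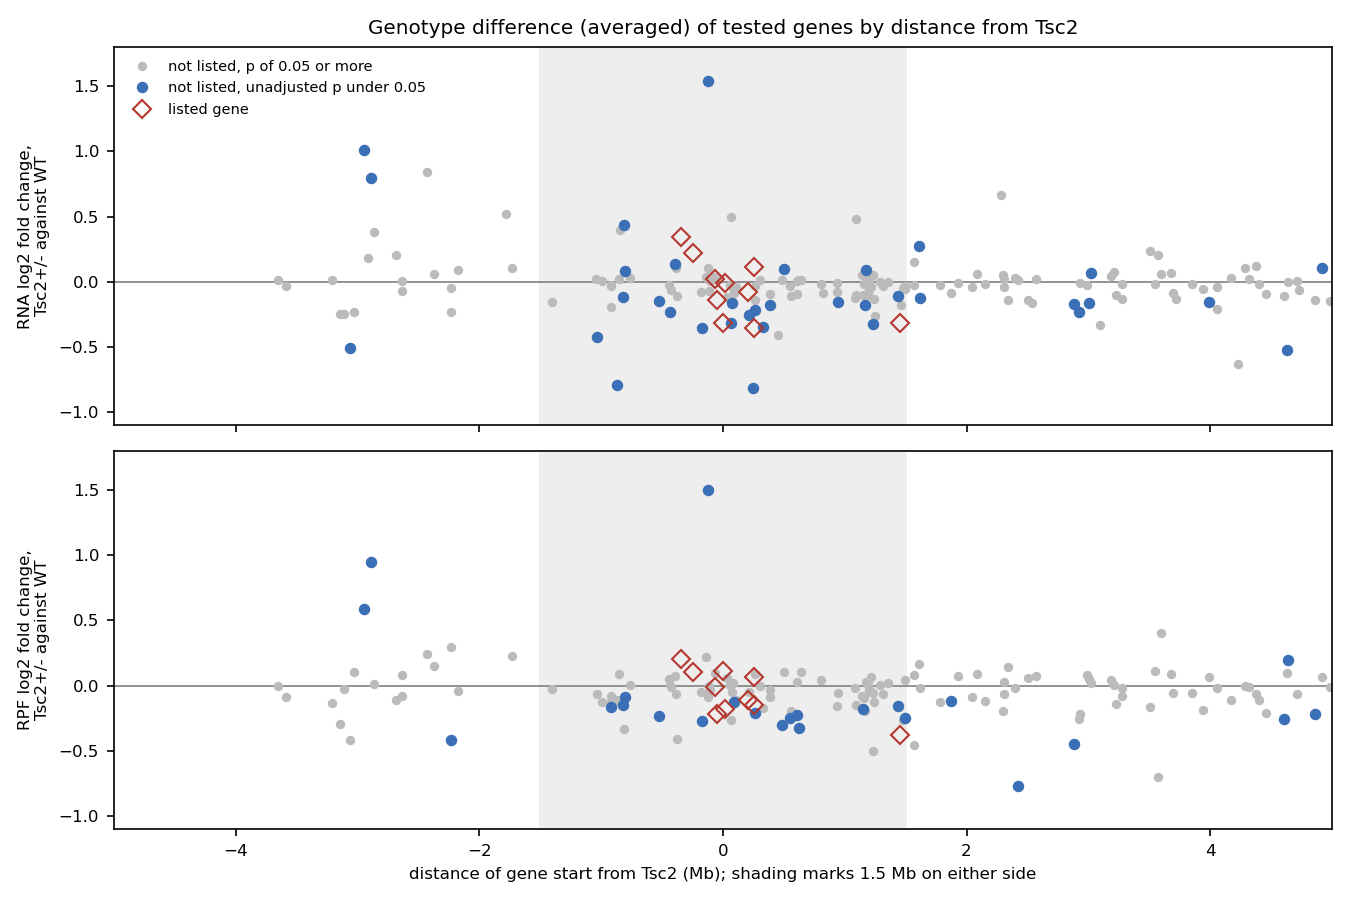
Log2 fold change of Tsc2+/- against WT (averaged over treatments) against the distance from Tsc2 in Mb, 1 point per gene tested within 5 Mb, in RNA and in footprints. Diamonds are the 10 listed genes, filled points the unlisted ones (blue under an unadjusted p of 0.05), shading marks the window of 1.5 Mb, Tsc2 is left out, and the highest point in both panels is Bricd5 at −0.122 Mb.

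**Figure D5:**
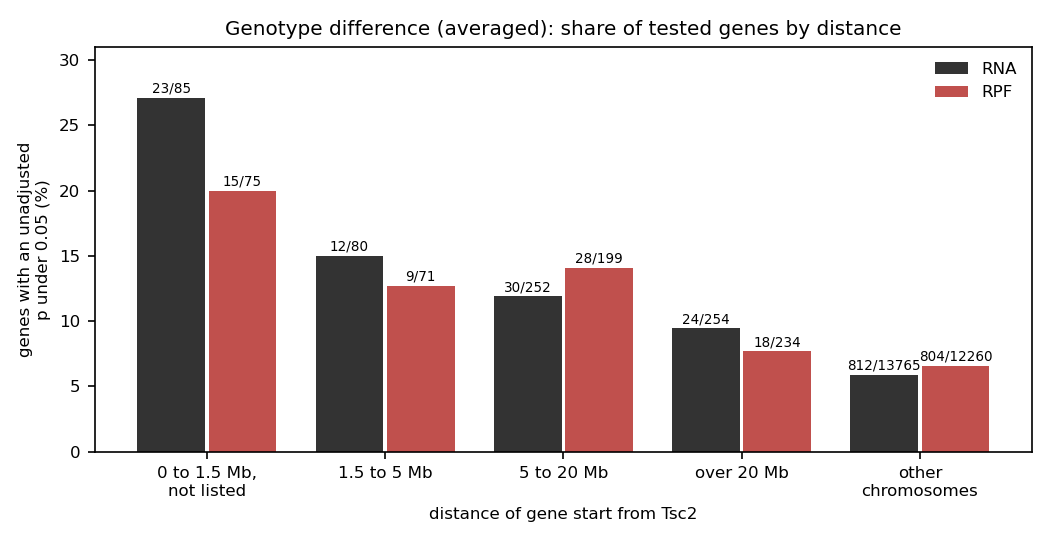
Percentage of genes with an unadjusted p under 0.05 for the averaged genotype difference, by distance of the gene start from Tsc2, with the listed genes left out of the nearest class. The RNA bars fall from 27.1% within 1.5 Mb to 5.90% on other chromosomes.

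The unlisted gene nearest to Tsc2 on the Pkd1 side was Rab26, a small GTPase of secretory and synaptic vesicles, with an RNA log2 fold change of 0.04 (SE 0.0682, edgeR adjusted p = 0.967). On the Nthl1 side it was Zfp598, a ubiquitin ligase that senses collided ribosomes, with −0.11 (SE 0.0684, edgeR adjusted p = 0.838). Neither passed, and in footprints they were at 0.10 and 0.06. A further 3 genes were picked after their values were seen. Bricd5, at −0.122 Mb, had 0.132 to 0.289 CPM of RNA in WT (2 to 7 counts) and 0.310 to 1.13 in Tsc2+/- slices (7 to 25 counts), and its footprints were 0.380 to 1.01 against 1.64 to 4.42 CPM. The groups did not overlap in either assay, yet edgeR called neither the RNA difference of 1.54 (SE 0.441, adjusted p = 0.309, higher in 6 of 6) nor the footprint difference of 1.495 (SE 0.338, adjusted p = 0.126, higher in 6 of 6). The gene model of Bricd5 (chr17:24473487-24475471, plus strand) lies mostly within that of Mlst8 (chr17:24473550-24479114, minus strand). Reads there could therefore have been assigned to either gene. Eci1, a mitochondrial enoyl-CoA isomerase, was at −0.35 in RNA (edgeR adjusted p = 0.499, lower in 6 of 6) and −0.28 in footprints (adjusted p = 0.585, lower in 5 of 6). Mrps34, of the mitochondrial ribosome, was at −0.21 in both (edgeR adjusted p = 0.471 and 0.636).

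Genes that work with the listed ones were followed in 6 lists. These were the TSC complex and its target Rheb, the polycystins, base excision repair, the glyoxalases, cytosolic iron-sulfur assembly and peroxisomal beta-oxidation. Among their genes, Haghl and Narfl also lie in the window, at 1.153 and 1.141 Mb, and were counted with its unlisted genes too. Of 42 genes, Hagh left out, 37 were tested in RNA and 34 in footprints. Exactly 1 was called for genotype in each assay, Glo1, the glyoxalase that acts before Hagh, with 0.56 in RNA (SE 0.0440, edgeR adjusted p = 1.67e-10) and 0.53 in footprints (SE 0.0436, edgeR adjusted p = 1.20e-09), and 0 were lower. Over all genes 0.248% and 0.0544% were called. The partner lists were chosen with earlier results of these data known, so nothing is read from these counts. Glo1 itself lies on chromosome 17, and Hagh, as given above, was at −0.08 in RNA. At an unadjusted p under 0.05, 4 of 37 partners in RNA and 5 of 34 in footprints were counted for genotype, beside 6.28% and 6.83% of all genes. Pkd2 (−0.00), Tsc1 (−0.02) and Rheb (−0.06) were not called in RNA, and 0 partners were called for DHPG or for the interaction by edgeR, with 3 of 37 and 2 of 34 at an unadjusted p under 0.05 for DHPG averaged (1104 and 896 of all genes) and 0 and 0 for the interaction.

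Across the 12 RNA libraries, with each replicate number centred, the genes whose log2 CPM followed Pkd1 most closely were Cul7 (r = 0.918), Chd8 (r = 0.917) and Ap1b1 (r = 0.911), out of 12047 genes with a mean count of at least 50. For the sparse Nthl1 they were Gne (r = 0.874), Setd3 (r = 0.862) and 2610005L07Rik (r = 0.850), of 12048. These points share libraries and depth, and the values are a description of likeness without a test.

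The RNA libraries held 14801679 to 24067838 counts and the footprint libraries 5296006 to 13613673. In footprints 97.9% to 98.5% of the counts above 0 in replicates 2 and 3 were even numbers, against 48.2% to 49.0% in replicate 1. With those counts halved, 1 listed gene, Decr2, was called for genotype in footprints in place of 0. Neuronal markers (5 genes) summed to 11231 to 13212 CPM of RNA, CA1 markers to 1614 to 1786 and CA3 markers to 52.2 to 67.0. The lists hold different genes and no uncut slices stand beside them, so these sums do not measure the removal of area CA3. Blood genes (4 of 5 in the table) were lower in Tsc2+/- slices, 2.59 to 17.7 against 16.3 to 35.2 CPM of RNA. Dentate gyrus markers in DHPG slices were 43.7 to 49.5 CPM in Tsc2+/- against 62.3 to 73.6 in WT. With vehicle they overlapped, at 48.5 to 59.8 against 49.8 to 78.8. Their part in the results was not tested, and in such bulk samples fewer cells of a type cannot be told apart from less RNA per cell.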

How the data were processed

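Hippocampal slices were profiled by poly(A) RNA-seq and by ribosome footprints (RPF), 12 libraries each, in 4 groups of 3. The authors' processing notes name cutadapt, Bowtie2, TopHat2, RSEM and DESeq2 and the build mm10, and they deposited expected counts for each gene, for footprints over coding sequences with 30 bases removed at each end. Replicates 1, 2 and 3 come from the labels. The slices of a library were pooled from several mice, and nothing says which mice entered which library, so p-values measure the spread between these libraries.

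Deposited expected counts were rounded to whole numbers and analysed in R 4.3.3 with edgeR 4.0.16: filterByExpr with a minimum count of 10, TMM scaling, and a robust quasi-likelihood fit with 4 groups and the replicate number, since the study's methods place the replicates in 3 batches and removed batch, without saying which number is which batch. P-values were Benjamini-Hochberg adjusted over all genes tested, and a gene was called under 0.1. Intervals are 95% intervals of the fit. Translational efficiency was the assay by group interaction over 24 libraries. CPM used TMM library sizes. Columns without a sample numbered 0. The fit was tested on simulated data.

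The listed genes, partner lists and marker lists were chosen with earlier results of these data known. Named genes were the 10 listed, Tsc2, the nearest tested unlisted gene on each side, the called unlisted genes of the window (0 were found), the 3 genes most like Pkd1 and Nthl1, and called partners. Bricd5, Eci1 and Mrps34 were chosen after their values were seen. Alternatives were DESeq2 1.42.0 with its own size factors, ComBat (sva 3.50.0) before DESeq2, other scalings, filters, thresholds and windows, halved footprint counts, and each library or replicate number left out. Gene positions and sequences are those of the RefSeq annotation of GRCm38.p6, to which 99.4% of RNA and 99.6% of RPF rows were matched.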

Additional observations from a re-analysis of the deposited data

How the results depend on the processing

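The counts below are of the 10 listed genes unless the window is named. Of the 22 RNA alternatives for the averaged genotype difference, Abca3 was called under 21, Spsb3 under 20, Decr2 under 20 and Pkd1 under 1 (without WT vehicle replicate 3), and Decr2 was called in footprints under 4 of 23. The log2 fold changes of Abca3 (0.20 to 0.25 in RNA), Spsb3 (−0.43 to −0.31), Decr2 (−0.36 to −0.29 in RNA, −0.42 to −0.34 in footprints) and Pkd1 (−0.19 to −0.08 in RNA) kept their signs. The sign changed for Slc9a3r2 under 5 alternatives, Traf7 under 4 and Hagh under 1 in RNA, and for Nthl1 under 2, Traf7 under 9 and Ccnf under 1 in footprints, each a value near 0 or with a wide interval.

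ComBat followed by DESeq2 gave 0 calls for genotype with vehicle, 1 with DHPG (Spsb3), 11 in the RNA window, 1 for DHPG in WT and 1 averaged (Pkd1 in both), and, in footprints, 1 listed gene and 1 in the window (Decr2). The cause was not tested. The RNA call with vehicle was also 0 with only the groups compared. Halving the footprint counts of replicates 2 and 3 gave 1 listed gene (Decr2) and 2 in the window (Bricd5 and Decr2). A window of 5 Mb held 6 RNA calls instead of 3, as it takes in more genes. Leaving out libraries gave 0 to 1 for the RNA genotype call with vehicle, 0 to 4 for the averaged call and 0 to 4 in the RNA window, 0 to 1 for the averaged footprint call and 0 to 1 in its window. It gave 14 to 23 unlisted window genes in RNA and 7 to 16 in footprints at an unadjusted p under 0.05. Counts of calls for DHPG in Tsc2+/- slices and for the interaction were 0 under every alternative run.

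The replicate number was a block in the model because the study's methods place the replicates of every group in 3 batches and removed batch, but no source says that a number marks a batch. Deviations of same-numbered libraries from their group means correlated at 0.0228 to 0.143 in RNA and 0.0330 to 0.263 in footprints over 18 pairs each. Differently numbered libraries of different groups correlated at −0.126 to 0.0240 in RNA and −0.194 to 0.0667 in footprints. The ranges overlapped only at their ends, so same-numbered libraries tended to deviate together. Taking out group means makes these correlations depend on each other, and the pairing was not tested. With no replicate block, the RNA call with vehicle became 0, the averaged RNA count stayed at 3, and the unlisted window genes at an unadjusted p under 0.05 were 20 in RNA and 14 in footprints. With lysate as the block, 0 of the 40 efficiency values were called and the largest moved by 0.120. The lowest depth limits Nthl1 (6 to 38 counts) and Bricd5 (2 to 30 counts).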
